A study of Mus musculus with 16 samples.

Results

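Dendritic cells grown from mouse bone marrow and exposed to quercetin, a plant flavonol, were given lipopolysaccharide (LPS), a cell wall lipid of Gram-negative bacteria, and their miRNAs were compared with those of quercetin-exposed cells that received no LPS. The comparison takes the 4 quercetin plus LPS libraries and the 4 quercetin libraries, chosen by their labels, of the 16 small RNA libraries in the series. It covers 1372 miRNA names, of which 568 passed the filter on low counts and were tested. The cells came from C57BL/6 mice, 8 weeks old for mice 1 to 3 and 7 weeks for mouse 4, labelled as male on every library but 1, and red cells were lysed before culture. Quercetin was given at 25 µM on days 5 and 7, and LPS at 1 µg/mL for 6 h on day 8. The quercetin libraries had quercetin alone. The other 8 libraries, from the same 4 mice, had neither agent (control) or LPS alone (LPS). They set the response beside that of cells without quercetin, and the filter, the scaling and the statistical fit take in all 16 libraries.

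A miRNA is cut from a hairpin whose 2 arms, named 5p and 3p, form a short duplex. The guide arm is usually retained by Argonaute and finds its target mRNAs with its seed, bases 2 to 8, while the passenger arm is mostly discarded. LPS acts through Toll-like receptor 4 (TLR4), and NF-kB and AP-1 downstream of it are known to switch on the host genes of miR-155, which promotes dendritic cell activation, and of miR-146a, which restrains TLR signalling in a feedback loop. miR-221 and miR-222 are neighbouring hairpins with guide arms of the same seed, best known for lowering the cell cycle inhibitor p27.

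Sequences are shown first for the hairpins that carry the result, from RefSeq on build GRCm38.p6, which holds a mature sequence for 458 of the 568 miRNAs tested. The miR-155 hairpin lies at chr16:84714140-84714204 on the plus strand, within an exon of the lincRNA gene Mir155hg, and both of its mature arms are in capitals, miR-155-5p first and miR-155-3p last:
Mir155: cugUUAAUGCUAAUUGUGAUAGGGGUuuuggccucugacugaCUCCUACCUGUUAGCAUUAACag
The miR-222 hairpin lies at chrX:19146893-19146971 on the minus strand, 504 bases from that of miR-221 (chrX:19146294-19146388), and the GENCODE annotation of the build has no other gene over either on that strand. The capitals mark the only arm that has an entry, miR-222-3p:
Mir222: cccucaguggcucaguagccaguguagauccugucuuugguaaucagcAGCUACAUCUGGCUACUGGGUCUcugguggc
The mature arms with their seeds in capitals show that miR-221-3p and miR-222-3p share a seed, and that miR-155-5p, miR-155-3p, miR-221-5p and miR-203-3p each have a seed that no other tested miRNA with a sequence has:
miR-155-5p: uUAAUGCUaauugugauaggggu
miR-155-3p: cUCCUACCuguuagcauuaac
miR-222-3p: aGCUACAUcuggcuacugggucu
miR-221-3p: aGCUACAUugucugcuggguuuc
miR-221-5p: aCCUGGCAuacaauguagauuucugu
miR-203-3p: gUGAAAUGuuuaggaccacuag

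Libraries differed in how their levels followed the GC share of the miRNAs, and both libraries with steep slopes are in the quercetin plus LPS group. Totals ran from 6459654 to 9041030 counts over the 8 libraries and were 8137368 ± 375563 with quercetin and 7835800 ± 1069702 with quercetin plus LPS (SD, n = 4, exact permutation p = 0.686, two-sided). Within each library, log2 levels relative to the mean of all libraries were regressed on the GC share of the mature sequence. In quercetin plus LPS 1 and 4 the slopes were -0.50 and -0.93 log2 units per 10 GC points, so that GC-rich miRNAs were low there. In quercetin plus LPS 2 and 3 they were -0.10 and 0.18, and in the quercetin libraries 0.20, 0.15, 0.24 and -0.20. The LPS log2 difference over the 458 miRNAs fell with GC share (Pearson r -0.67 and Spearman rho -0.72 across miRNAs, which share libraries and are not replicates). Without quercetin the same correlations were -0.02 and -0.01. Single libraries there had slopes too, of 0.08, 0.34, -0.15 and 0.25 in control 1 to 4. In LPS 1 to 4 the slopes were 0.24, 0.31, 0.13 and -0.24. The median LPS log2 difference with quercetin was 0.22 for the 185 miRNAs of at most 45.5% GC and -0.66 for the 125 of more than 54.5%, against 0.02 and 0.01 without quercetin. Which step of the work gave rise to these slopes was not tested, and calls below are given also with the slope as a covariate and without quercetin plus LPS 1 and 4.

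**Figure D1:**
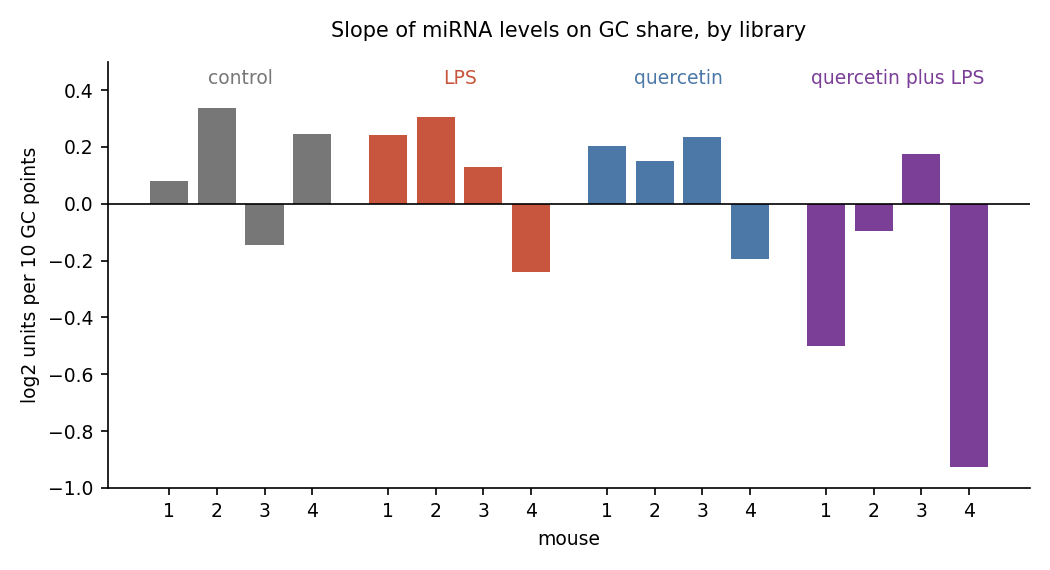
Slope of log2 miRNA level on GC share (y axis, log2 units per 10 GC points) for each of the 16 libraries (x axis, by mouse within group). Quercetin plus LPS 1 and 4, at -0.50 and -0.93, lie below every other library.

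**Figure D2:**
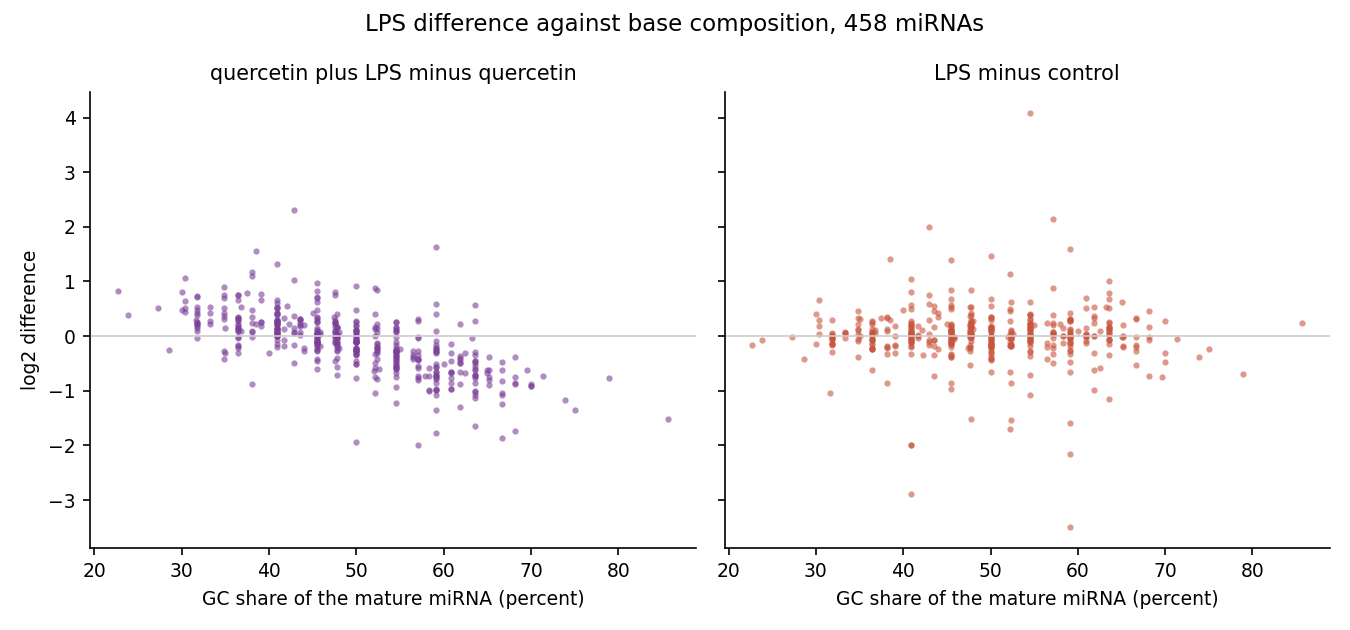
LPS log2 difference (y axis) of each of 458 miRNAs against the GC share of its sequence (x axis, percent), with quercetin on the left and without it on the right. Points slope down on the left (r -0.67) and show no slope on the right (r -0.02).

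Sequences at the ends of the GC range are given with G and C in capitals, and they differ in GC share by choice. The set was chosen by GC share and abundance alone, after the pattern had been seen:
miR-340-5p: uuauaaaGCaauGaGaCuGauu
let-7f-5p: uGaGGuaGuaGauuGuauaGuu
miR-98-5p: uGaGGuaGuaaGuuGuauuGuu
miR-423-3p: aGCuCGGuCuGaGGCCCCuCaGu
miR-326-3p: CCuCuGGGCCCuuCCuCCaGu
miR-671-3p: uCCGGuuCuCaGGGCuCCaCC
miR-423-3p, of 65.2% GC, was at 2202, 2135, 2659 and 656 CPM (counts scaled to the TMM library size) in quercetin 1 to 4 and at 301, 1600, 2501 and 139 CPM in quercetin plus LPS 1 to 4. It was low in quercetin plus LPS 1 and 4 and near the quercetin level in 2 and 3, and the groups overlapped. miR-340-5p, of 27.3% GC, was at 1569, 2517, 1698 and 3769 CPM with quercetin and at 1766, 4892, 3193 and 3859 CPM with quercetin plus LPS. Neither passed the test (log2 differences -0.75 ± 0.73 and 0.52 ± 0.44, SE, edgeR adjusted p = 0.742 and 0.716).

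LPS raised 2 miRNAs in quercetin-exposed cells, the passenger arms miR-222-5p and miR-155-3p, and lowered none past the threshold (edgeR quasi-likelihood test, adjusted p under 0.05). These are 0.352% of the 568 tested, and 41 miRNAs, or 7.22%, had an unadjusted p under 0.05, 17 higher (2.99%) and 24 lower (4.23%) with LPS. The number past the threshold was 3 without quercetin plus LPS 1 and 4, and 7 without quercetin 4, all higher. miR-222-5p was at 59.4, 57.4, 59.0 and 56.9 CPM in quercetin 1 to 4 and at 195, 137, 170 and 183 CPM in quercetin plus LPS 1 to 4. The quercetin libraries lay within 3 CPM of one another and every LPS-treated library lay above them. The log2 fold change was 1.56 ± 0.21 (SE, 95% interval 1.12 to 2.00, adjusted p = 6.9e-04), higher in 4 of 4 mice. With the GC slope as a covariate it was 1.39 (adjusted p = 0.00383), and without quercetin plus LPS 1 and 4 it was 1.51 (adjusted p = 0.00584).

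miR-155-3p was at 48.1, 38.3, 55.6 and 45.5 CPM in quercetin 1 to 4 and at 334, 131, 186 and 274 CPM in quercetin plus LPS 1 to 4. The groups did not overlap, and the LPS-treated libraries were spread more widely (231 ± 90.2 CPM, SD, n = 4) than the quercetin libraries (46.9 ± 7.14 CPM). Mouse 1 had the highest value with LPS and mouse 2 the lowest. The log2 fold change was 2.30 ± 0.35 (SE, 95% interval 1.56 to 3.04, adjusted p = 0.00168), the largest rise of all 568, and higher in 4 of 4 mice. It was 2.28 with the GC slope as a covariate (adjusted p = 0.00942) and 1.87 without quercetin plus LPS 1 and 4 (adjusted p = 0.0211). The call was lost without mouse 4 (2.20, adjusted p = 0.0590), with the GC slope and the mouse both in the model (2.12, adjusted p = 0.0550) and without quercetin 4 and quercetin plus LPS 1 and 4 (1.72, adjusted p = 0.0672).

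The guide arms of the same hairpins did not pass. miR-155-5p, the arm that acts on most known miR-155 targets, was at 28807, 33228, 37834 and 31790 CPM in quercetin 1 to 4 and at 36701, 27521, 31130 and 68265 CPM in quercetin plus LPS 1 to 4. It was higher in 2 of 4 mice, and quercetin plus LPS 4 stood well above the other 7 libraries. Its log2 difference was 0.31 ± 0.30 (adjusted p = 0.742), and it was below 0 in each fit that took the GC slope or quercetin plus LPS 1 and 4 out (-0.05 to -0.21). miR-222-3p was at 7455, 4888, 6435 and 5520 CPM with quercetin and at 13355, 11529, 14276 and 5655 CPM with quercetin plus LPS. Mice 1 to 3 were well above their quercetin libraries while mouse 4 was level with its own. Over the 4 mice the log2 difference was 0.88 ± 0.26 (adjusted p = 0.347), and without quercetin plus LPS 4 it was 1.26 and past the threshold (adjusted p = 0.00605). It was also past it without quercetin plus LPS 1 and 4 (1.20, adjusted p = 0.0358). It did not pass with the GC slope as a covariate (1.14, adjusted p = 0.0951) or with DESeq2 (0.97, adjusted p = 0.114). Nor did it pass without quercetin 4 and quercetin plus LPS 1 and 4 (1.03, adjusted p = 0.127).

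Neither arm of miR-221 passed. The passenger arm miR-221-5p was at 182, 101, 131 and 107 CPM with quercetin and at 567, 178, 235 and 551 CPM with quercetin plus LPS. All 4 mice were higher with LPS, mice 1 and 4 most, and the groups overlapped by the values of quercetin 1 and quercetin plus LPS 2. The log2 difference was 1.55 ± 0.43 (adjusted p = 0.308). It passed with DESeq2 (1.64, adjusted p = 0.0197) and without quercetin plus LPS 2 (1.93, adjusted p = 0.0499). It was 1.32 with the GC slope as a covariate (adjusted p = 0.925) and 0.78 without quercetin plus LPS 1 and 4 (adjusted p = 0.906). The guide arm miR-221-3p, with the seed of miR-222-3p, was at 4961 to 7021 CPM with quercetin and at 5448 to 9027 CPM with quercetin plus LPS (0.16 ± 0.20, adjusted p = 0.823).

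**Figure D3:**
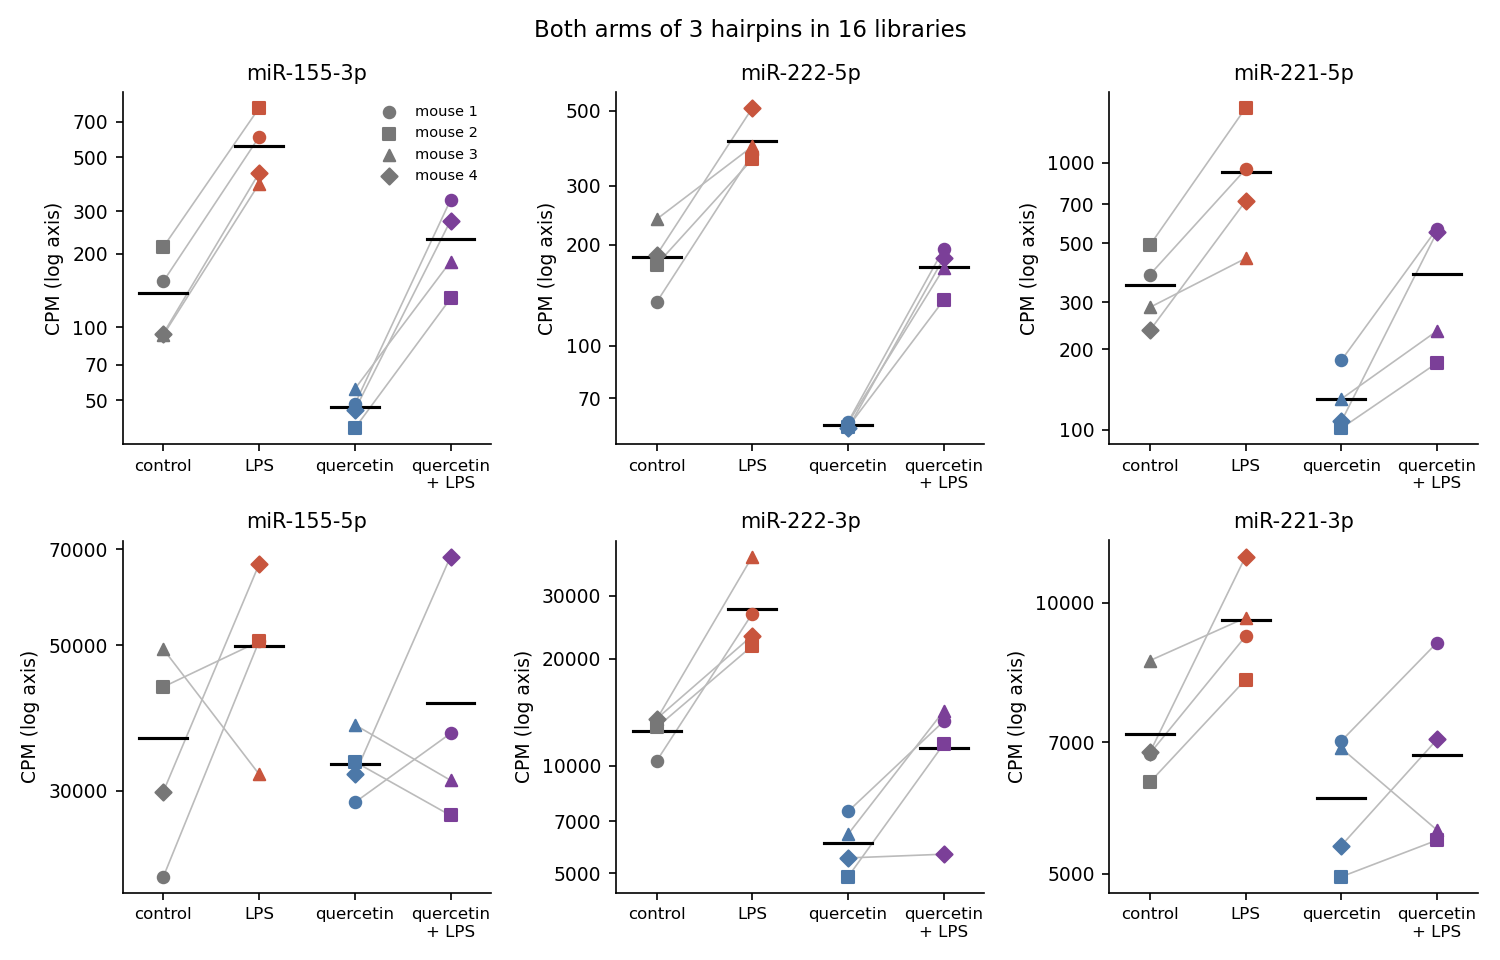
CPM (log axis) of the less abundant arm (top row) and the more abundant arm (bottom row), by the mean of all libraries, of 3 hairpins in 16 libraries. Grey lines join the libraries of a mouse and bars are group means. miR-155-3p and miR-222-5p have no overlap between quercetin and quercetin plus LPS.

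The balance of the arms of miR-155 gives the same values as a ratio within each library. Counts of miR-155-5p per count of miR-155-3p were 599, 867, 680 and 699 in quercetin 1 to 4 and 110, 210, 167 and 249 in quercetin plus LPS 1 to 4. Without quercetin they were 144, 202, 531 and 318 in control and 83.7, 63.6, 81.8 and 154 in LPS libraries. In each mouse the ratio was lower with LPS, in both backgrounds. Over 73 hairpins whose rarer arm, by the mean of all 16 libraries, had at least 10 CPM in that mean, the log2 difference of the rarer arm minus that of the commoner arm had a median of -0.12 with quercetin. It was 1.99 for miR-155, the highest of the 73, 1.39 for miR-221, the next, and 0.67 for miR-222, at rank 10. With the GC slope as a covariate the log2 differences of the rarer and commoner arms of miR-155 were 2.28 and -0.14. Those of miR-221 were 1.32 and -0.05, and those of miR-222 were 1.39 and 1.14.

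**Figure D4:**
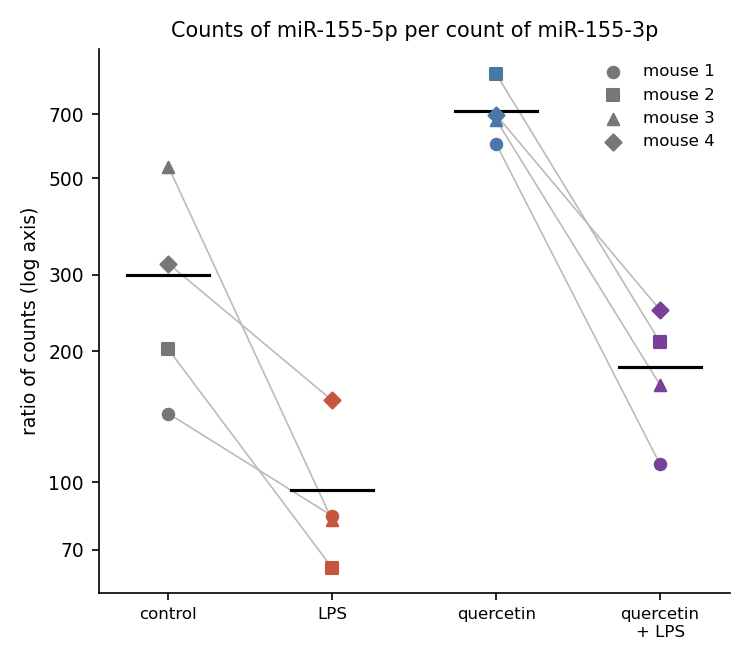
Counts of miR-155-5p per count of miR-155-3p (log axis) in each library, with grey lines joining the libraries of a mouse and bars at group means. The ratio ran from 599 to 867 with quercetin and from 110 to 249 with quercetin plus LPS.

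miR-203-3p, a miRNA abundant in keratinocytes, was also higher with LPS in every quercetin-exposed culture without passing the test. It was at 94.5, 55.8, 108 and 105 CPM with quercetin and at 163, 123, 239 and 379 CPM with quercetin plus LPS. The groups did not overlap, and the rise was largest in mouse 4. The log2 difference was 1.32 ± 0.31 (SE, adjusted p = 0.126), and 1.03 with the GC slope as a covariate (adjusted p = 0.527). It was 1.11 without quercetin plus LPS 1 and 4 (adjusted p = 0.274) and 1.02 without mouse 4 (adjusted p = 0.540). It passed with DESeq2 (1.38, adjusted p = 0.00248), among miRNAs of at least 10 CPM (1.35, adjusted p = 0.0267) and when quercetin 4, quercetin plus LPS 1 or quercetin plus LPS 2 was left out in turn (1.49 to 1.62). It was at 0.07 in LPS minus control. miR-455-5p was at 17.2, 25.0, 22.6 and 30.3 CPM with quercetin and 21.7, 51.9, 39.5 and 41.8 CPM with quercetin plus LPS, higher in 4 of 4 mice with overlapping groups (0.70 ± 0.25, adjusted p = 0.514).

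No miRNA was lower past the threshold with edgeR, DESeq2 or limma-voom, and the 24 lower at an unadjusted p under 0.05 had a median of 58.3% GC over the 23 with a sequence, against 40.9% for 13 of the 17 higher and 49.0% for all tested. With the GC slope as a covariate 23 miRNAs had an unadjusted p under 0.05, 12 higher and 11 lower, of which 16 were among the 41. miR-27a-5p, the passenger arm of miR-27a, was at 44.4, 30.5, 36.8 and 28.0 CPM with quercetin and 9.99, 24.6, 20.2 and 5.25 CPM with quercetin plus LPS. The groups did not overlap and quercetin plus LPS 1 and 4 were lowest (-1.22 ± 0.37, adjusted p = 0.347). With the GC slope as a covariate it was -0.66, and without those libraries -0.52. miR-342-3p, from an intron of Evl, was at 637, 837, 1009 and 864 CPM with quercetin and 421, 504, 648 and 417 CPM with quercetin plus LPS. Each mouse was lower with LPS, and the groups overlapped only by quercetin 1 and quercetin plus LPS 3 (-0.75 ± 0.23, adjusted p = 0.367). It was -0.63 with the covariate and -0.43 without quercetin plus LPS 1 and 4.

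Other miRNAs at the lower end were also lower with LPS in 4 of 4 mice. miR-7033-5p was at 48.1, 33.1, 31.9 and 30.4 CPM with quercetin and 25.3, 17.4, 23.4 and 11.2 CPM with quercetin plus LPS (-0.89 ± 0.28, adjusted p = 0.367). Its difference was -0.54 without quercetin plus LPS 4 and -0.57 without quercetin 1. miR-652-3p ran from 507 to 701 CPM and from 193.6 to 532.9 CPM (-0.78 ± 0.30, adjusted p = 0.583). Its difference was -0.43 without quercetin plus LPS 4, -0.37 with the GC slope as a covariate and -0.38 without quercetin plus LPS 1 and 4. miR-501-3p ran from 328 to 384 CPM and from 161 to 294 CPM (-0.74 ± 0.30, adjusted p = 0.583) and was at -0.46 with that covariate and -0.45 without those libraries. The groups of miR-7033-5p and miR-501-3p did not overlap. Over all 568 miRNAs, 96 were lower with LPS in 4 of 4 mice and 62 were higher. Counted by groups, 11 of 568 (1.94%) had all 4 quercetin plus LPS libraries above all 4 quercetin libraries, and 10 (1.76%) had all 4 below.

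The response was then set beside that of cells without quercetin, to ask whether quercetin changed it. miR-155-3p and miR-222-5p were the 2 miRNAs past the threshold in both, out of 3 (0.528%) in LPS minus control. Without quercetin miR-155-3p was at 154, 214, 92.8 and 94.0 CPM in control and 606, 797, 389 and 431 CPM in LPS libraries, a rise of 2.00 on the log2 scale. miR-222-5p was at 135, 174, 238 and 187 CPM in control and 372, 359, 392 and 510 CPM in LPS libraries, a rise of 1.15. Both stood at lower CPM in the quercetin libraries than in any control, and every quercetin plus LPS library was below every LPS library. The same held for miR-222-3p, miR-132-3p, miR-212-3p and miR-147-3p, and not for miR-221-3p, so it was not particular to these 2. Its share over all miRNAs tested was not counted. The difference between the LPS responses was 0.30 for miR-155-3p, with a 95% interval of -0.70 to 1.30, and 0.40 for miR-222-5p, with a 95% interval of -0.21 to 1.01 (interaction in edgeR, adjusted p = 0.923 and 0.893).

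miR-129-5p, the third miRNA past the threshold without quercetin, was at 1.55, 1.13, 1.01 and 1.39 CPM in control and 5.48, 6.14, 7.53 and 3.68 CPM in LPS libraries (log2 fold change 2.15, adjusted p = 0.0179). With quercetin alone it was at 11.1, 3.45, 9.53 and 4.08 CPM, and with quercetin plus LPS at 8.85, 8.59, 13.02 and 4.58 CPM (0.32 ± 0.39, adjusted p = 0.818). Its mean over the 16 libraries was 5.69 CPM, below the 10 CPM asked of miRNAs named by p-value. Other miRNAs also stood higher in every quercetin library than in any control, among them miR-7033-5p and miR-451a, and others lower, such as miR-132-3p. miR-129-5p had the smallest interaction p of all (-1.83 ± 0.56, unadjusted p = 0.00491, adjusted p = 0.889). Next of the 568 came miR-342-3p (-1.02, unadjusted p = 0.00659) and miR-203-3p (1.25, unadjusted p = 0.0115), both with adjusted p = 0.889. Among the other named miRNAs, the interactions of miR-501-3p (-1.12), miR-223-5p (0.99) and miR-7068-3p (-0.81) had unadjusted p from 0.0156 to 0.0211. In all, 0 of 568 (0%) passed the interaction test with edgeR, and 26 (4.58%) had an unadjusted p under 0.05. DESeq2 and limma-voom also passed 0, with 29 and 20 at an unadjusted p under 0.05.

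**Figure D5:**
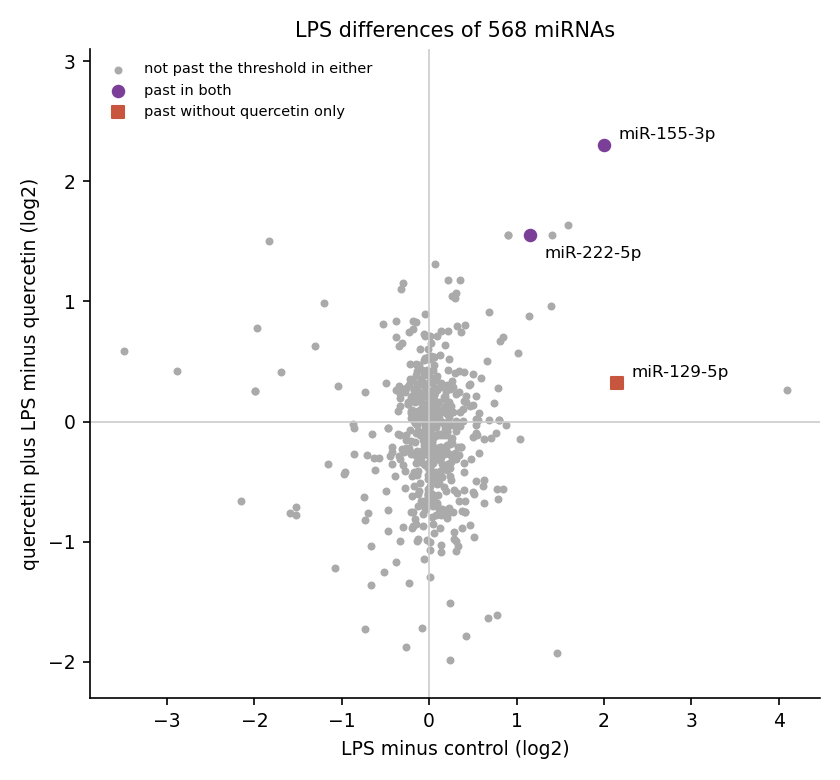
LPS log2 difference with quercetin (y axis) against that without it (x axis) for 568 miRNAs. miR-155-3p (2.30 and 2.00) and miR-222-5p (1.56 and 1.15) are past the threshold in both, and miR-129-5p (0.32 and 2.15) without quercetin alone.

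A difference between the responses could go unseen at this depth and replication. The 95% interval of the interaction had a median half-width of 1.06 on the log2 scale and lay within -1 to 1 for 115 of 568 miRNAs. For the response with quercetin the median half-width was 0.75, and the interval lay within -1 to 1 for 256 miRNAs (45.1%), and for 63.0% of the 308 with a mean of at least 10 CPM. The 2 responses had a correlation across the 568 miRNAs of r 0.07 (rho 0.01), where miRNAs are not independent replicates and the mice are shared. The difference with quercetin followed GC share (r -0.67) and that without did not (r -0.02). This correlation therefore cannot tell how far the LPS responses agree.

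Among miRNAs known to be induced by LPS in macrophages and dendritic cells, 2 of the 26 tested rose, miR-155-3p and miR-222-5p, and 0 fell, where the share of all miRNAs tested was 0.352%. Besides these, miR-221-5p and miR-222-3p were higher at an unadjusted p under 0.05. The median log2 difference of the list was 0.26, against -0.06 for all miRNAs tested, and 0.12 against -0.07 with the GC slope as a covariate. The list was written with earlier results of these data known, so its share and median are no independent support. Of its other members, miR-146a-5p was at 1744, 638, 697 and 683 CPM with quercetin and 1999, 606, 704 and 2674 CPM with quercetin plus LPS (0.67 ± 0.64, adjusted p = 0.742). Mice 2 and 3 were level with their quercetin libraries and mouse 4 was well above its own, and without quercetin plus LPS 1 and 4 the difference was -0.41. miR-146b-5p, with the same seed, was lower with LPS in mice 1 to 3 and higher in mouse 4 (0.40 ± 0.56, adjusted p = 0.838). The CREB-responsive miR-132-3p (-0.24) and miR-212-3p (-0.47), miR-147-3p (0.01), which is induced by TLR signals, miR-9-5p (0.36) and let-7e-5p (0.01) did not pass either. miR-21a-5p, the next most abundant after miR-22-3p, was at 111780, 122410, 115450 and 152040 CPM with quercetin and 117630, 163590, 131940 and 215570 CPM with quercetin plus LPS, higher in 4 of 4 mice (0.33 ± 0.20, adjusted p = 0.689).

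Of the list described as lowered by TLR4, 0 of 11 members passed with edgeR, DESeq2 or limma-voom, and 0 had an unadjusted p under 0.05. Its median was 0.22, and 0.04 with the GC slope as a covariate. let-7i-5p, which targets Tlr4 mRNA, was higher with LPS in 4 of 4 mice (0.54 ± 0.26, adjusted p = 0.664), and miR-92a-3p was lower in 3 (-0.42 ± 0.25, adjusted p = 0.689). miR-223-5p was at 0.25 ± 0.26 (adjusted p = 0.788), against -0.74 without quercetin.

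The remaining lists also had 0 members past the threshold with edgeR, DESeq2 or limma-voom. At an unadjusted p under 0.05, 2.99% of all miRNAs tested were higher and 4.23% lower, and no list was tested against that share. In the miR-23/27/24 clusters 2 of 11 members, miR-23a-5p and miR-27a-5p, were lower at an unadjusted p under 0.05, while the guide arms miR-27b-3p (0.09 ± 0.24) and miR-27a-3p (0.08 ± 0.19) were not. In the miR-181 family, which tunes lymphocyte signalling, 2 of 8 were lower at that level, miR-181a-5p (-0.40 ± 0.17) and miR-181a-2-3p (-0.66 ± 0.27), and the median was -0.29, -0.35 with the GC slope as a covariate and -0.06 without quercetin plus LPS 1 and 4. miR-181b-5p was at -0.19. In the miR-30 family 1 of 11 was higher, miR-30e-5p (0.51 ± 0.23), with miR-30d-5p at -0.23, and in the miR-29 family 1 of 7, miR-29b-3p (0.75 ± 0.34), with miR-29a-3p at 0.04 and miR-29c-3p at 0.20. In the miR-17-92 cluster and its paralogues 1 of 22 was lower, miR-93-5p (-0.49 ± 0.21), with miR-25-3p at -0.07. Of let-7 (14 tested) and of p53- and hypoxia-linked miRNAs (14 tested) 0 had an unadjusted p under 0.05. let-7f-5p was at 0.39, let-7a-5p at 0.09 and miR-192-5p at 0.16. The hypoxia-induced miR-210-3p was at 1105, 1356, 1434 and 457 CPM with quercetin and 135, 1160, 1771 and 93.1 CPM with quercetin plus LPS (-0.46 ± 0.77, adjusted p = 0.862). It was low in quercetin plus LPS 1 and 4, and 0.53 with the GC slope as a covariate. miR-369-3p, of the imprinted Dlk1-Dio3 cluster, was higher in 4 of 4 mice (14.2 ± 4.30 and 18.6 ± 4.55 CPM, SD, n = 4, log2 difference 0.39 ± 0.42, adjusted p = 0.790).

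The labelled cell type was checked against miRNAs of blood and myeloid cells, which were present in both groups at levels that differed widely. miR-142a-5p ran from 15908 to 28135 CPM over the 8 libraries (0.28 ± 0.27, adjusted p = 0.742) and miR-22-3p, the most abundant miRNA, from 119850 to 164320 CPM (-0.16 ± 0.15, adjusted p = 0.740). miR-223-3p was at 1308 to 2907 CPM, while miR-511-3p was at 33.4 to 45.6 CPM and miR-511-5p at 8.21 to 18.6 CPM. In the myeloid list miR-142a-3p (0.90 ± 0.38) was higher and miR-342-3p lower at an unadjusted p under 0.05, of 11 tested, where 7.22% of all miRNAs tested were at that level in either direction. The list's median was 0. Counts of miR-124-3p, a neuronal miRNA, were between 0 and 9, and those of the muscle miRNA miR-1a-3p between 0 and 2. Another muscle miRNA, miR-133a-3p, had counts between 7 and 40. In bulk RNA, fewer cells of a type and less RNA per cell cannot be told apart.

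Markers of other cell types were measured beside these results and their part in them was not tested. The 7 erythroid miRNAs tested summed to between 5628 and 13862 CPM with quercetin and between 2149 and 6283 CPM with quercetin plus LPS. Of these miRNAs, 0 were past the threshold. The sums of lists are in CPM of the library total, without TMM scaling. Most of each sum is miR-486, and the sums hold the reads of miR-486 under both names, since miR-486a-5p carries the same counts as its copy miR-486b-5p. miR-486a-5p was at 6471, 2458, 2933 and 2778 CPM with quercetin and 2802, 2346, 2489 and 1075 CPM with quercetin plus LPS (-0.75 ± 0.43, adjusted p = 0.689), and its difference was -0.17 without quercetin 1, -0.37 without quercetin plus LPS 4 and -0.09 with the GC slope as a covariate. The other members had miR-144-3p at 0.81 ± 0.60, miR-144-5p at 0.64 ± 0.52, miR-451a at 0.12 ± 0.31 and miR-486a-3p at -0.05 ± 0.68. The median of the list was -0.05, 0.53 with the GC slope as a covariate and 0.83 without quercetin plus LPS 1 and 4. The 6 lymphocyte miRNAs tested had a median of -0.27, -0.175 with the GC slope as a covariate and -0.133 without quercetin plus LPS 1 and 4. Of these, 4 were below 0 and 2 above, and miR-150-5p was at -0.36 ± 0.31. The 25 stromal, endothelial and epithelial names counted, of which 19 were tested, summed to between 15203 and 19090 CPM with quercetin. With quercetin plus LPS they summed to between 11222 and 23110 CPM. The median log2 difference of the 19 tested was 0.29. miR-10a-5p made up most of the sum (0.01 ± 0.39, adjusted p = 0.997). miR-143-3p, typical of smooth muscle and fibroblasts, was at 54.1, 479, 67.3 and 1186 CPM with quercetin and 65.3, 4317, 202 and 471 CPM with quercetin plus LPS. It differed more among libraries of a group than between the groups (1.501 ± 1.15, adjusted p = 0.709). Quercetin plus LPS 2 was also the highest of its group for miR-145a-5p (15.1 CPM), miR-199a-3p (121 CPM) and miR-214-3p (3.95 CPM). These other fibroblast and smooth muscle markers were at 0.78 ± 0.86, 0.25 ± 0.64 and -0.66 ± 0.85. The endothelial miR-126a-3p was at 0.47 ± 0.32. The epithelial miR-200a-3p was at 0.29 ± 0.31 and miR-200b-3p at -0.21 ± 0.23. miR-200c-3p was at 0.18 ± 0.32 and miR-141-3p at 0.38 ± 0.45. Of the 4 foreign tissue miRNAs tested, the liver miRNA miR-122-5p was at 4.88 to 24.4 CPM (0.18 ± 0.48) and the islet miRNA miR-375-3p at 0.81 to 8.07 CPM (-0.45 ± 0.56).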

How the data were processed

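The labels of the small RNA libraries name the miRNeasy and TruSeq Small RNA kits. The deposited table holds raw counts of reads per mature miRNA. The submitters' processing notes name cutadapt and build mm9. The version, aligner and counting rule are not given in the sources used here.

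Of 1381 rows with 1377 names, 1 row holding text was left out and 4 names on 2 rows each were summed. A further 4 rows were left out because 2 pairs of neighbours look exchanged in the quercetin columns. Names with identical counts (15 sets of 32 names) cannot be told apart.

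edgeR 4.0.16 (R 4.3.3) was used with filterByExpr by group, TMM scaling and a quasi-likelihood fit to all 16 libraries. Contrasts were quercetin plus LPS minus quercetin, LPS minus control, and their difference (the interaction). P-values were adjusted by Benjamini-Hochberg over 568 miRNAs, with a threshold of 0.05. SE is the log2 fold change over the square root of F. CPM are TMM-scaled. The scripts were tested on simulated data. DESeq2 1.42.0 and limma 3.58.1 (voom) were alternatives. The GC slope of each library was a covariate in added fits.

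Members and lists were chosen with earlier results of these data known. The rule for named miRNAs took miR-155, miR-146a-5p, miR-221-3p, miR-222, miR-129-5p and miR-369-3p always, the 12 largest rises and falls past the threshold, the 10 smallest p-values and 5 smallest interaction p-values at 10 CPM or more, the 5 most abundant, and up to 4 members per list, of which the 2 most abundant are given. Any other miRNA was named with its values already known.

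The same number marks the same mouse, per the labels. Deviations from group means of quercetin and quercetin plus LPS libraries of a mouse correlated at 0.01, 0.41, 0.23 and 0.47 in mice 1 to 4, and those of different mice at -0.56 to 0.29. Mature sequences and hairpin positions are from RefSeq, build GRCm38.p6, with the GENCODE M21 annotation, and no coordinates of the authors' build were used.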

Additional observations from a re-analysis of the deposited data

Results flagged for a closer look

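In groups of 4 libraries, 6 of 84 looked at had a library far from the other 3 by Dixon's criterion, which chance gives in about 1 of 20 groups. In quercetin 1 miR-146a-5p was at 1744 CPM (other libraries 638 to 697), miR-7033-5p at 48.1 CPM (30.4 to 33.1), and miR-486a-5p and miR-486b-5p, which carry the same counts, each at 6471 CPM (2458 to 2933). miR-369-3p was at 7.75 CPM in quercetin 2 (15.6 to 16.7). miR-143-3p was at 4317 CPM in quercetin plus LPS 2 (65.3 to 471).

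The left-out rows held counts too. In the 8 libraries with quercetin, the pair of miR-6993-3p and miR-1839-5p held 53332 counts, and that of miR-700-3p and miR-654-3p held 276, on the neighbouring row from that used in the other libraries. Kept as deposited, these rows left the number of miRNAs past the threshold at 2.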

How the results depend on the processing

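The number of miRNAs past the threshold stayed at 2, both higher, with upper quartile or library size scaling, limma-voom, no filter on low counts, the exchanged rows as deposited and a fit to the 8 libraries alone. It also stayed at 2 with the mouse as a block, whose pairing comes from the labels and changed no call. It was 4 with DESeq2, with or without independent filtering, 3 among miRNAs of at least 10 CPM, 1 without mouse 4, and 2 to 7 without single libraries (7 without quercetin 4, 4 without quercetin plus LPS 2). In settings chosen after seeing the data it was 2 with the GC slope as a covariate, 1 with that and the block, 3 without quercetin plus LPS 1 and 4, and 4 without these and quercetin 4. miR-222-5p was past the threshold in all 24 settings (1.37 to 1.78). The interaction count was 0 in every setting run. The difference in total counts was -703312 to 157146 without single libraries, above 0 without quercetin plus LPS 3.

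Of 42 named miRNAs some changed sign, none of them past the threshold before or after, and the cause was not tested. Without mouse 4 the log2 difference was -0.067 for miR-155-5p, -0.035 for miR-27b-3p, -0.36 for miR-10a-5p, -0.090 for miR-122-5p, -0.17 for let-7a-5p and -0.007 for miR-29a-3p. With the GC slope it was -0.14 for miR-155-5p, -0.053 for miR-221-3p, -0.071 for miR-27b-3p, -0.36 for miR-10a-5p, -0.42 for miR-122-5p, 0.24 for miR-375-3p, -0.28 for let-7a-5p and 0.53 for miR-210-3p. With the GC slope and the replicate block it was -0.19 for miR-155-5p, -0.066 for miR-221-3p, -0.056 for miR-223-5p, -0.18 for miR-27b-3p, -0.53 for miR-10a-5p, -0.50 for miR-122-5p, 0.55 for miR-375-3p, -0.33 for let-7a-5p, -0.036 for miR-29a-3p, -0.005 for miR-192-5p and 0.57 for miR-210-3p. Without quercetin plus LPS 1 and 4 it was -0.054 for miR-155-5p, -0.41 for miR-146a-5p, -0.019 for miR-221-3p, -0.050 for miR-223-5p, -0.13 for miR-27b-3p, -0.68 for miR-10a-5p, -0.44 for miR-122-5p, 0.39 for miR-375-3p, -0.16 for let-7a-5p, -0.066 for miR-29a-3p and 0.53 for miR-210-3p. Without quercetin 4 as well it was -0.21 for miR-155-5p, -0.66 for miR-146a-5p, -0.20 for miR-221-3p, -0.28 for miR-223-5p, -0.26 for miR-27b-3p, -0.85 for miR-10a-5p, -0.57 for miR-122-5p, 0.13 for miR-375-3p, -0.37 for let-7a-5p, -0.26 for miR-29a-3p and 0.15 for miR-210-3p. miR-10a-5p was at -0.034 with library size scaling and with the replicate block, -0.13 with limma-voom and -0.030 in the 8 libraries with the replicate block. miR-25-3p was at 0.013 with DESeq2, 0.012 without a filter, 0.005 at 10 CPM or more, and 0.040 and, with the replicate block, 0.033 in the 8 libraries. Without single libraries the ranges were -0.13 to 0.34 for miR-10a-5p, -0.78 to 2.74 for miR-143-3p, -1.20 to 0.009 for miR-210-3p, -0.19 to 0.060 for miR-22-3p, -0.074 to 0.12 for miR-25-3p and -0.044 to 0.29 for miR-29a-3p.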

Other observations

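miR-24-2-5p, the passenger arm of a miR-24 hairpin, had counts of 0, 3328, 2499 and 3145 in quercetin 1 to 4 and of 2479, 79, 0 and 0 in quercetin plus LPS 1 to 4, and of 0 to 9991 in the other 8 libraries. Its log2 difference with LPS in quercetin-exposed cells (-1.93 ± 2.47, SE, edgeR adjusted p = 0.826) therefore has a wide error.

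The spread within groups differed. The median SD of log2 CPM over the 125 miRNAs of more than 54.5% GC was 0.90 in quercetin plus LPS, against 0.49 in quercetin, 0.55 in control and 0.58 in LPS libraries. Over the 185 of at most 45.5% GC it was 0.43, 0.32, 0.44 and 0.36.

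Without quercetin the log2 difference of the rarer arm (by the mean of all 16 libraries) minus that of the commoner arm was 1.54 for miR-155 and 0.99 for miR-221, the 2 highest of the same 73 hairpins as with quercetin, and 0.02 for miR-222.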
